A study of Mus musculus with 14 samples.

Results

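The 10 genes described here encode ligands and receptors of the tumour necrosis factor (TNF) superfamily through which T-cells give and receive help. They comprised 7 ligand genes (Cd40lg, Tnfsf8, Tnfsf11, Tnfsf14, Cd70, Lta and Ltb) and 3 receptor genes (Cd27, Tnfrsf1b and Tnfrsf25). A probe was assigned to one of them where the annotation in the array files gave exactly that gene name. This found 13 probes for the 10 genes, out of 36870 gene names on the array. No measured value entered that choice.

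TNF superfamily ligands are mostly trimeric proteins held in the cell membrane, and they signal by clustering receptors on a neighbouring cell. The receptors carry no enzyme of their own and recruit adaptors, chiefly the TRAF proteins, that lead to NF-kB. In lymphoid tissue CD40 ligand on helper T-cells licenses B-cells and dendritic cells, lymphotoxins shape the stroma of lymph nodes and follicles, and CD27 and its ligand CD70 sustain T-cells after priming.

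The study profiled CD4+ T-cell RNA on 14 arrays of 1 colour, 7 for Roquin san/+ and 7 for wild-type animals, and compared the genotypes. Roquin, encoded by Rc3h1, is an RNA-binding protein that promotes the decay of target mRNAs, and Roquin san/+ mice carry the sanroque allele beside a wild-type allele. The allele is a point substitution, so the amount of Rc3h1 mRNA checks no label. The labels link the strain to lymphoma of follicular helper (Tfh) T-cells, and give no treatment, age, sex, tissue of origin or tumour status for any mouse. Replicates are lettered A to G within each genotype. Slide 1 held 5 Roquin san/+ arrays (A, B, C, F and G) and 2 wild-type arrays (F and G), and slide 2 held 2 Roquin san/+ arrays (D and E) and 5 wild-type arrays (A to E).

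Levels are given as log2 of the scanner's processed signal minus the 75th percentile of the same array, so that 0 is that percentile and a step of 1 is a 2-fold step. Replicate G of Roquin san/+ and replicate E of wild-type had been read with the grid 2 rows off the probe names and were moved back before any comparison. They are called the displaced arrays below, and dim probes on them stand at an artificial lowest signal. Array brightness (the 75th percentile of the processed signal over all probes) ran from 284 to 811 on 13 arrays and was 84.6 on Roquin san/+ replicate C. The 8 T-cell markers checked (Cd3e, Cd3g, Cd3d, Cd4, Cd28, Trat1, Cd2 and Cd5) were well above background on all 12 well-placed arrays. Their mean level ran from 1.52 to 3.17 in Roquin san/+ and from 2.02 to 3.24 in wild-type, with the low ends at Roquin san/+ replicate F (1.52) and replicate C (1.81) and at wild-type replicate C (2.02). Replicate F also had the highest mean level of the markers of myeloid cells (2.69, against -1.93 to 0.64 on the other 13 arrays), B-cells, NK cells and erythroid cells. For each tested gene, values without some of these arrays are given below.

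Probe sequences are shown for the 3 genes that were read by a pair of probes, so that a difference can be compared between the probes. The probes of a pair also differ in level and were not placed in a transcript, so the part of position in a disagreement was not tested. Each line gives the first 30 of the 60 bases of a probe, 5′ to 3′, as deposited. No base is in capitals because no motif is at issue.
Tnfsf8 A_66_P127104: gtcaaaactgctgtctggaagtctatgcct
Tnfsf8 A_51_P484371: ttctgcccaaattccattctgtgtgcagtt
Tnfsf11 A_55_P2039359: gatacataataggctactgaaatctgtcag
Tnfsf11 A_52_P488947: gtcattgcaaagaaatgatagtgtgaaggg
Tnfrsf1b A_52_P228621: gcaattgcactgtgtgctggacagaattcc
Tnfrsf1b A_55_P2738892: ttttaatgatgatggtgtctcctgtagccc

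In mouse build mm9, the build of the array files, the Tnfsf8 probes lay at chr4:63492410-63492469 and chr4:63494489-63494548, both on the minus strand and 2079 bases apart. Those of Tnfsf11 lay at chr14:78677444-78677503 and chr14:78677959-78678018 on the minus strand, 515 bases apart. The Tnfrsf1b probes lay at chr4:144804304-144804363 and chr4:144833903-144833961 on the minus strand, 29599 bases apart. The second Tnfrsf1b probe was designed on another cDNA record than the first. Over the 12 well-placed arrays, Pearson's r between the probes of a pair was 0.92 for Tnfsf11, 0.73 for Tnfsf8 and 0.38 for Tnfrsf1b. The other members were read by a single probe each. These lay at chrX:54477066-54477125 (plus strand) for Cd40lg, chr17:57329192-57329251 (minus) for Tnfsf14, chr17:57285465-57285524 (minus) for Cd70, chr17:35340275-35340334 (minus) for Lta, chr17:35333097-35333156 (plus) for Ltb, chr6:125183200-125183259 (minus) for Cd27 and chr4:151494160-151494219 (plus) for Tnfrsf25. Exons and UTRs of mm9 were not used here. A gene is represented below by its tested probe with the highest mean level, listed first in each pair above.

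Of the 10 genes, 8 passed the detection filter, and none of them differed between the genotypes after adjustment over all 28802 tested probes (limma, adjusted p from 0.861 to 0.98). No probe on the array did so either (0%). The 8 genes were well above background on all 12 well-placed arrays, so none passed through 1 genotype alone. At an unadjusted p below 0.05 there were 2 of 8, Tnfrsf1b and Tnfsf14, both higher in Roquin san/+, against 3.64% of all tested probes (1049 of 28802), of which 2.96% were higher and 0.681% lower. In 5 of 8 genes the Roquin san/+ mean was the higher, against 52.3% of all tested probes. The median difference of the 8 was 0.17 on the log2 scale, and that of all tested probes 0.02. Levels of the 2 genotypes overlapped for all 8, as they did for all but 0.0382% (higher) and 0.0104% (lower) of tested probes. Over 5 ways of scaling the arrays the Roquin san/+ mean was the higher in 4 to 6 of the 8. No member had an unadjusted p below 0.05 with the 75th percentile taken over all probes, with quantile normalization, within slide 2 alone or with both displaced arrays left out. Without wild-type replicate C, 3 of the 8 had the higher mean in Roquin san/+ and only Tnfrsf1b had an unadjusted p below 0.05. In bulk RNA such as this, fewer cells of a type and less RNA per cell cannot be told apart.

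**Figure D1:**
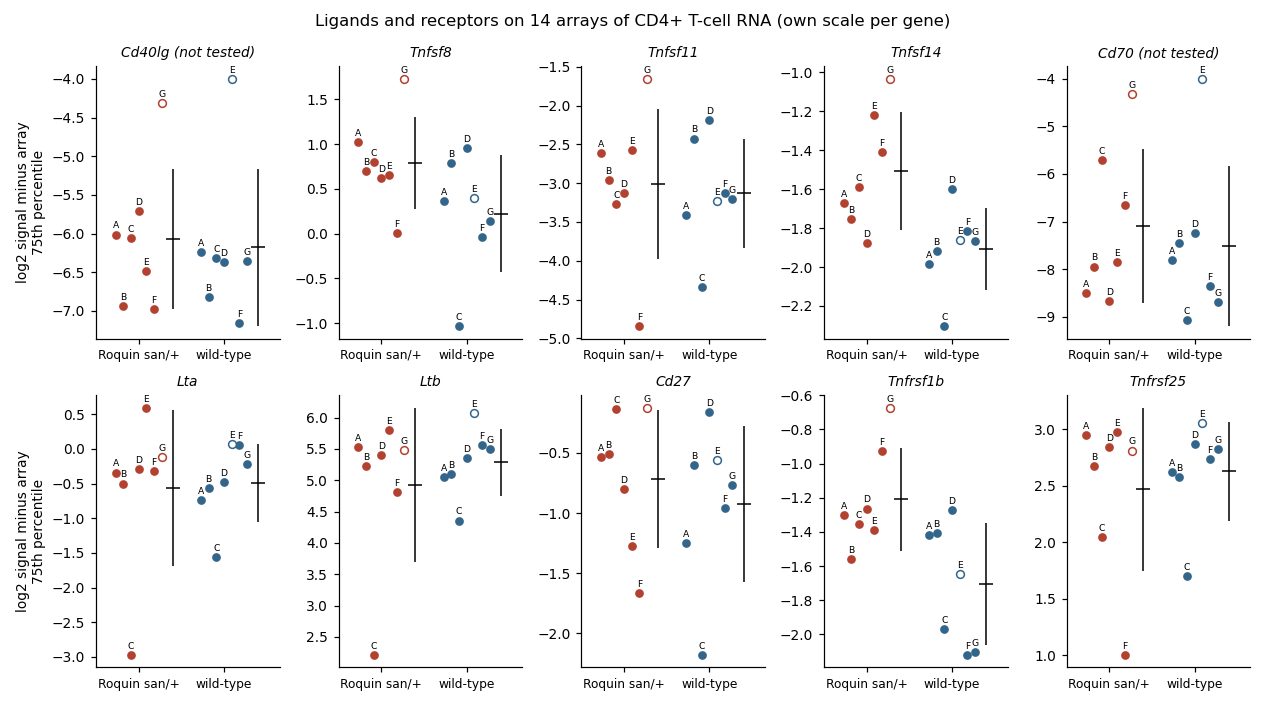
Level of each gene (log2 processed signal minus the array's 75th percentile) on each array, with a y axis of its own for each gene. Letters are replicates, open points are the 2 displaced arrays, and the bar beside each group is its mean ± SD over 7 arrays. The genotypes overlap in every panel, and Roquin san/+ replicate C stands far below the rest for Lta and Ltb.

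**Figure D2:**
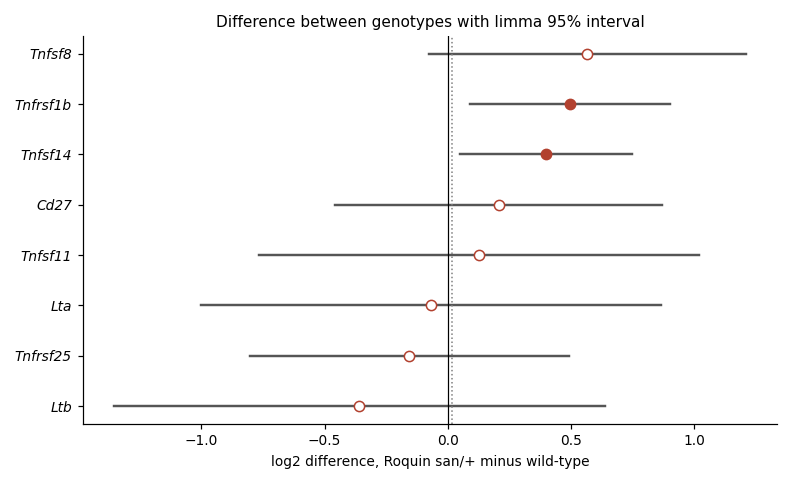
Log2 difference (Roquin san/+ minus wild-type) of the 8 tested genes with limma's 95% interval. Filled points have an unadjusted p below 0.05, and the dotted line is the median of all tested probes (0.02). Only the intervals of Tnfrsf1b and Tnfsf14 leave out 0.

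Among the ligands, the mean level of Tnfsf14 was 0.40 higher in Roquin san/+ (SE 0.16, 95% interval 0.05 to 0.75), which is 1.32-fold. Tnfsf14 encodes LIGHT, which binds the herpesvirus entry mediator HVEM and the lymphotoxin beta receptor. Its level in Roquin san/+ ran from -1.88 (replicate D) over a median of -1.59 to -1.03 (replicate G). In wild-type it ran from -2.30 (replicate C) over a median of -1.87 to -1.60 (replicate D). Thus 4 of 7 Roquin san/+ arrays lay above the highest wild-type array, and all 7 wild-type arrays lay below the Roquin san/+ median. The unadjusted limma p was 0.0278 and the adjusted p 0.861, and a two-sided exact permutation of the arrays gave p = 0.0122. The difference was 0.35 within slide 1, 0.38 within slide 2, and 0.37 with slide as a block, where the unadjusted limma p was 0.0693. The unadjusted p was below 0.05 in 11 of the 14 fits that left out an array, the exceptions being Roquin san/+ replicates E and G and wild-type replicate C. The difference was 0.18 with arrays weighted by their quality, and 0.33 with an unadjusted limma p of 0.07 without the displaced arrays.

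The largest difference among the 8 tested genes was that of Tnfsf8, 0.57 higher in Roquin san/+ (SE 0.30, 95% interval -0.08 to 1.21). Tnfsf8 encodes CD30 ligand, which activated T-cells carry. Its level ran from 0.01 (replicate F) over 0.70 to 1.73 (replicate G) in Roquin san/+, and from -1.03 (replicate C) over 0.36 to 0.96 (replicate D) in wild-type. In Roquin san/+, 6 of 7 arrays were above the wild-type median, while 2 were above the highest wild-type array. The unadjusted limma p was 0.0798 (adjusted 0.861) and the exact permutation p was 0.0944. Without Roquin san/+ replicate F, the array rich in markers of other cells, the difference was 0.70 with an unadjusted limma p of 0.0354 (adjusted 0.95). It was smaller without wild-type replicate C, low in T-cell markers (0.36, unadjusted limma p 0.179), and without the displaced Roquin san/+ replicate G (0.41, unadjusted limma p 0.177). The lower probe of the pair differed by 0.33 (SE 0.34), and by 0.06 without the displaced arrays, of which replicate G had the highest level of that probe (1.06, the next being 0.01). Within slide 2 the difference of that probe was -0.19.

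For Tnfsf11, which encodes RANK ligand, a factor for osteoclasts, dendritic cells and lymph node formation, no difference could be seen beyond the spread. Its level ran from -4.84 (replicate F) over -2.96 to -1.65 (replicate G) in Roquin san/+ and from -4.34 (replicate C) over -3.20 to -2.19 (replicate D) in wild-type. The groups lay over each other, with a difference of 0.13 (SE 0.42, 95% interval -0.77 to 1.02, adjusted p 0.964). The second probe gave 0.15 (SE 0.34). The difference of the first probe was 0.43 without Roquin san/+ replicate F. It was -0.12 without the displaced arrays, -0.10 without Roquin san/+ replicate G alone and -0.08 without wild-type replicate C alone, so its direction was not settled.

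Lta and Ltb encode lymphotoxin alpha, which is secreted as a homotrimer that binds the TNF receptors, and lymphotoxin beta, which anchors lymphotoxin alpha in the membrane to engage the lymphotoxin beta receptor. The level of Lta in Roquin san/+ was -2.97 on replicate C and -0.50 to 0.60 on the other 6 arrays, with a group median of -0.31. In wild-type it ran from -1.56 (replicate C) over -0.48 to 0.07 (replicate E). Apart from replicate C, the Roquin san/+ arrays spanned the upper range of the wild-type arrays. The difference over all arrays was -0.07 (SE 0.44, 95% interval -1.0 to 0.86, adjusted p 0.98), and 0.33 without Roquin san/+ replicate C. Without wild-type replicate C it was -0.25.

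Ltb behaved alike, with a level of 2.21 on Roquin san/+ replicate C and 4.82 to 5.80 on the other 6 arrays (group median 5.40). Wild-type arrays ran from 4.36 (replicate C) over 5.36 to 6.07 (replicate E). The difference was -0.36 (SE 0.47, 95% interval -1.35 to 0.64, adjusted p 0.893) over all arrays and 0.09 without Roquin san/+ replicate C, the dimmest array. Without wild-type replicate C it was -0.51. Within slide 1, which holds Roquin san/+ replicate C, both genes were lower in Roquin san/+ (-0.76 for Lta and -0.87 for Ltb). Within slide 2 both were higher (0.81 and 0.41). Roquin san/+ replicate C was low also for the T-cell markers, and the part of its brightness in these values was not tested.

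Cd40lg and Cd70 were too dim to be tested. Cd40lg, the ligand through which helper T-cells license B-cells, was well above background on 3 of 6 well-placed Roquin san/+ arrays and on 5 of 6 well-placed wild-type arrays. Leaving out the displaced arrays, where it stood at the lowest signal, its level ran from -6.97 to -5.70 in Roquin san/+ and from -7.15 to -6.24 in wild-type. Cd70, the ligand of CD27 that appears on activated lymphocytes, was well above background on 1 of 6 well-placed arrays of each genotype. No fold is given for either gene, and a difference between the genotypes was not detectable at these signals.

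Among the receptors, Tnfrsf1b had a mean level 0.50 higher in Roquin san/+ (SE 0.19, 95% interval 0.09 to 0.90), which is 1.41-fold. Tnfrsf1b encodes TNFR2, a TNF receptor found on activated and regulatory T-cells among others. Its level ran from -1.56 (replicate B) over -1.30 to -0.67 (replicate G) in Roquin san/+ and from -2.12 (replicate F) over -1.65 to -1.27 (replicate D) in wild-type. All 7 Roquin san/+ arrays lay above the wild-type median, 3 of them above the highest wild-type array, and 4 of 7 wild-type arrays lay below the lowest Roquin san/+ array. The unadjusted limma p was 0.0203 (adjusted 0.861), and the exact permutation p was 0.0169. The difference was 0.95 within slide 1 and 0.22 within slide 2. It was above 0 in all 14 fits that left out an array (0.41 to 0.57), with an unadjusted limma p below 0.05 in each. Roquin san/+ replicate F, the array with the highest myeloid markers, had the level next below that of replicate G (-0.93). Without replicate F the difference was 0.45 (unadjusted limma p 0.042).

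The second Tnfrsf1b probe, 29599 bases away, gave a difference of 0.70 (SE 0.39, unadjusted limma p 0.0954). On that probe Roquin san/+ replicate C stood at -1.15 and the other 6 Roquin san/+ arrays at -4.75 to -3.02, while wild-type arrays ran from -4.55 to -3.75. Without replicate C the difference of the second probe was 0.35. Replicates D, F and G of Roquin san/+ lay above the highest wild-type array on both probes. Within slide 2 the second probe was lower in Roquin san/+ (-0.19).

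Cd27, a receptor that sustains primed T-cells and is bound by CD70, had a level from -1.66 (replicate F) over -0.53 to -0.12 (replicate G) in Roquin san/+. In wild-type it ran from -2.18 (replicate C) over -0.77 to -0.16 (replicate D). The groups overlapped almost wholly, with a difference of 0.21 (SE 0.31, 95% interval -0.46 to 0.87, adjusted p 0.908). Without wild-type replicate C, the difference was -0.002, and without Roquin san/+ replicate F it was 0.36.

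Tnfrsf25 encodes DR3, the receptor of TL1A that co-stimulates T-cells. Its level ran from 1.003 (replicate F) over 2.81 to 2.97 (replicate E) in Roquin san/+ and from 1.70 (replicate C) over 2.74 to 3.06 (replicate E) in wild-type. The low arrays of both genotypes were those with low T-cell markers, and the medians differed by less than the spread of either group. The difference was -0.16 (SE 0.30, 95% interval -0.80 to 0.49, adjusted p 0.93) over all arrays and 0.09 without Roquin san/+ replicate F. Without wild-type replicate C it was -0.31.

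**Figure D3:**
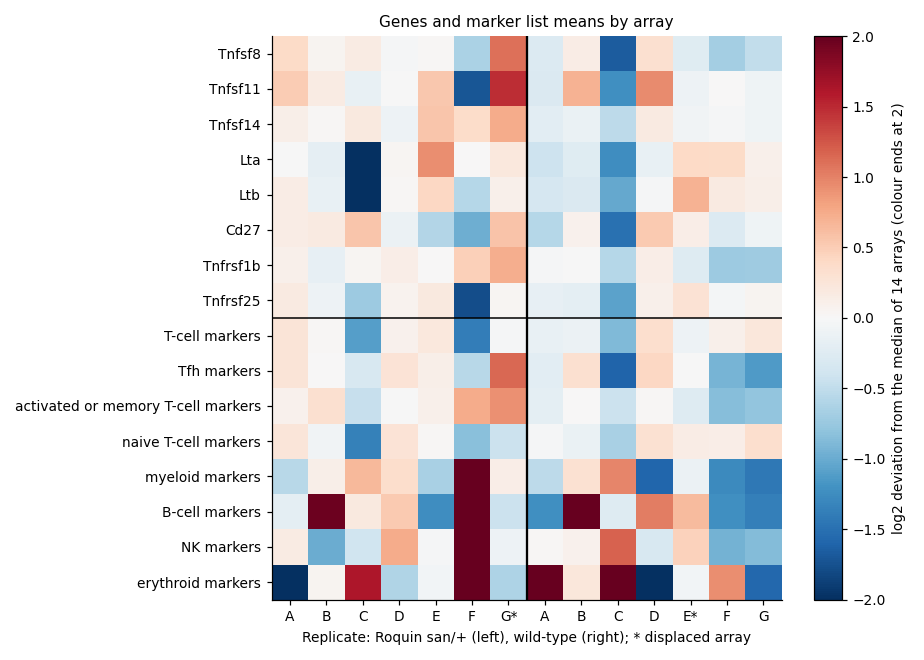
Deviation of the 8 tested genes (top) and of the mean level of marker lists (bottom) from the median of the 14 arrays, on the log2 scale, with colours that end at 2. Wild-type replicate C is low for nearly all of the 8 genes and for the T-cell markers, and Roquin san/+ replicate F is low for T-cell markers and high for markers of myeloid cells, B-cells, NK cells and erythroid cells.

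The 8 genes moved along a few arrays. In wild-type, replicate C had the lowest level of 7 of the 8, Tnfrsf1b being the exception (lowest on replicate F). Wild-type replicate C also had the lowest mean of the T-cell, Tfh, regulatory T-cell and naive T-cell markers in its group. It was lowest too for many, though not all, of the signalling genes, among them Traf1, Nfkb1 and Rela. Its low level was thus not particular to these 8 genes, and the share over all tested probes was not counted. The highest wild-type level was that of replicate D for Tnfsf8, Tnfsf11, Tnfsf14, Cd27 and Tnfrsf1b, and that of replicate E for Tnfrsf25, Lta and Ltb. In Roquin san/+ the same genes divided in the same way, with replicate G highest for the first 5 and replicate E for the other 3. Both displaced arrays are among those named, G in Roquin san/+ and E in wild-type. With them set aside, the genotypes no longer divided the genes alike. The highest Roquin san/+ array was then A for Tnfsf8, E for Tnfsf11 and Tnfsf14, C for Cd27 and F for Tnfrsf1b. In wild-type it was then D for Tnfrsf25 and F for Lta and Ltb. Replicate F was the lowest Roquin san/+ array for Tnfsf8, Tnfsf11, Cd27 and Tnfrsf25, and replicate C for Lta and Ltb.

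**Figure D4:**
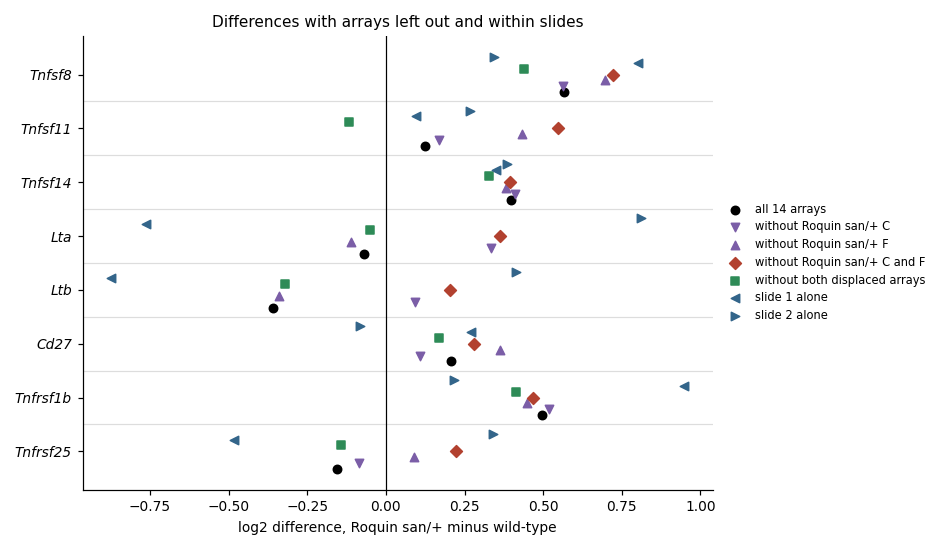
Log2 difference (Roquin san/+ minus wild-type) of the 8 tested genes with all 14 arrays, with named arrays left out, and within each slide. Tnfsf8, Tnfsf14 and Tnfrsf1b lie above 0 in all 7 settings shown, while Lta, Ltb and Tnfrsf25 lie on either side of 0.

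Without Roquin san/+ replicates C and F, a choice made after seeing the data and on the Roquin san/+ side alone, all 8 genes had the higher mean in Roquin san/+. Of these, 3 (Tnfsf8 at 0.72, Tnfrsf1b at 0.47 and Tnfsf14 at 0.40) had an unadjusted limma p below 0.05, and none passed after adjustment (lowest adjusted p 0.999). Over all tested probes, 577 of 28823 had such an unadjusted p in that fit, and the median difference was 0.007. With the displaced arrays left out as well, the 8 differences ran from 0.21 (Cd27) to 0.55 (Tnfsf8), and none had an unadjusted p below 0.05. With the mean of the T-cell markers as a covariate, 7 of 8 were above 0, and Tnfsf8 (0.69), Tnfrsf1b (0.49) and Tnfsf14 (0.42) had an unadjusted limma p of 0.0199, 0.0261 and 0.0227 (lowest adjusted p 0.883). With that covariate, 1031 of 28802 tested probes had an unadjusted limma p below 0.05. Wild-type replicate C, also low in T-cell markers (2.02) and lowest of its group for 7 of the 8 genes, stayed in these fits. With that array alone left out of the main fit, the median difference of the 8 was -0.04.

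Markers of T-cell state and of other cells also had different means in the genotypes, and their part in the members' differences was not tested. The 12 Tfh markers tested (among them Bcl6, Cxcr5, Pdcd1, Icos and Il21) all had the higher mean in Roquin san/+, with a median difference of 0.50 and 1 gene, Ascl2, at an unadjusted p below 0.05. Of the 8 markers of activated or memory T-cells, 7 had the higher mean (median 0.52), and S100a4, S100a6 and Cxcr3 had an unadjusted p below 0.05. All 6 naive T-cell markers tested (median -0.29) and all 8 T-cell markers (median -0.18) had the lower mean in Roquin san/+. All 8 myeloid markers and all 6 B-cell markers tested had the higher mean (medians 0.86 and 0.81), as did 4 of 5 NK markers (0.66), 6 of 6 plasma cell markers (0.56), 4 of 4 markers of regulatory T-cells (0.49), both CD8 T-cell markers tested (1.46) and 2 of 3 erythroid markers (0.12). None of these markers had an adjusted p below 0.05. Over the 5 scalings, the number with the higher mean varied only for T-cell (0 or 1 of 8), plasma cell (5 or 6), NK (3 or 4), regulatory T-cell (3 or 4) and erythroid markers (1 or 2).

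Several of these directions were otherwise within slide 2 or without the arrays named above. Within slide 2 alone, the higher mean was in Roquin san/+ for 8 of 8 T-cell markers (median 0.28) and 5 of 6 naive markers (0.24), but for 0 of 6 B-cell (-1.23), 3 of 8 myeloid (-0.10), 2 of 5 NK (-0.24), 4 of 6 plasma cell (0.07) and 0 of 3 erythroid markers (-0.85). The Tfh markers (11 of 12, median 0.40), the activated or memory markers (7 of 8, 0.11) and the regulatory T-cell markers (4 of 4, 0.75) were mostly higher there too. Without Roquin san/+ replicates C and F, the higher mean was in Roquin san/+ for all 8 T-cell markers (median 0.21), 3 of 6 naive (0.04), 4 of 6 B-cell (0.13), 7 of 8 myeloid (0.44), 2 of 5 NK (-0.01) and 0 of 3 erythroid markers (-1.13). All 12 Tfh markers (0.76) and 7 of 8 activated or memory markers (0.60) again had the higher mean. On wild-type replicates F and G, which had the lowest levels of Tnfrsf1b (-2.12 and -2.10), the mean of the activated or memory markers was also the lowest of all arrays (0.98 and 1.04, against 1.39 to 2.76 on the others). These replicates are the only wild-type arrays of slide 1, so slide and marker level cannot be told apart there.

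For each tested member, the 3 genes whose levels followed it most closely over the 12 well-placed arrays were found among 19149 genes by Pearson's r. These arrays share slides, brightness and cell make-up, so r is given as a description. Tnfrsf25 was followed by Als2cl (0.99), Cd4 (0.98) and Ldhd (0.98), and without the dim replicate C the r with Cd4 was also 0.98. Tnfsf8 was followed by F730043M19Rik (0.96), Ctla4 (0.95) and Nt5e (0.95), where Ctla4 and Nt5e encode CTLA-4 and CD73. Without replicate C, the genes closest to Tnfsf8 were Ctla4 (0.98), Egr2 (0.96) and Hif1a (0.96). For Tnfsf11 the genes were D630039A03Rik (0.97), AK078720 (0.96) and Itm2c (0.94), and for Tnfsf14 they were Reep3 (0.93), Ptpn1 (0.92) and Csnk1g3 (0.91). Tnfrsf1b was closest to Csf1 (0.94), Ccdc28b (0.92) and Serp2 (0.92), and Cd27 to 5830416I19Rik (0.95), Praf2 (0.93) and 4930555G01Rik (0.93). Lta was closest to Sptlc2 (0.99), Szrd1 (0.98) and Rnf31 (0.98), and Ltb to Prmt9 (0.99), Tmub1 (0.99) and 1810009N02Rik (0.99). For the lymphotoxins those values were somewhat lower without Roquin san/+ replicate C. The r of Lta was then 0.98 with Sptlc2, 0.96 with Szrd1 and 0.93 with Rnf31. That of Ltb was 0.97 with Prmt9, 0.95 with Tmub1 and 0.93 with 1810009N02Rik.

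The binding partners of the members were examined next. Of the 9 partners, 6 were tested and 1 had an unadjusted p below 0.05. This was Tnfrsf11a, which encodes RANK, the receptor of RANK ligand. Its level was 0.58 higher in Roquin san/+ (SE 0.25, unadjusted limma p 0.0369, adjusted 0.861), with the Roquin san/+ arrays from -4.32 to -2.40 and the wild-type arrays from -4.37 to -3.70. The highest Roquin san/+ array was the dim replicate C, and the displaced replicate G stood at its lowest signal. Without replicate C the difference was 0.38 (unadjusted limma p 0.0616), and without replicate F it was 0.50 (0.0754). The unadjusted limma p was also above 0.05 with slide as a block (0.0637) and with normexp (0.105). It was below 0.05 without the displaced arrays (difference 0.73, unadjusted limma p 0.0144) and without wild-type replicate C (0.65, 0.0265).

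Ltbr, the lymphotoxin beta receptor, which stromal and myeloid cells carry, differed by 0.68 (SE 0.49), was highest on replicate F (-1.11) and differed by 0.35 without that array. Tnfsf15, the TL1A gene, differed by 1.29 (SE 0.70), with replicate C at -0.79 and the group mean at -4.68, and by 0.64 without replicate C. It was well above background on 5 of 6 well-placed wild-type arrays, so it passed the filter only through Roquin san/+, the group in which it was higher. Tnf, the namesake of the superfamily, differed by 0.34 (SE 0.27), and by 0.19 without wild-type replicate C. Tnfrsf14, which encodes HVEM, and Tnfrsf1a, which encodes the widely expressed TNF receptor 1, differed by -0.04 and -0.05. Cd40, Tnfrsf8 (CD30) and Tnfrsf11b (osteoprotegerin) were not tested, being well above background on 5 of 6, 0 of 6 and 0 of 6 well-placed Roquin san/+ arrays and on 3 of 6, 0 of 6 and 1 of 6 wild-type arrays.

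**Figure D5:**
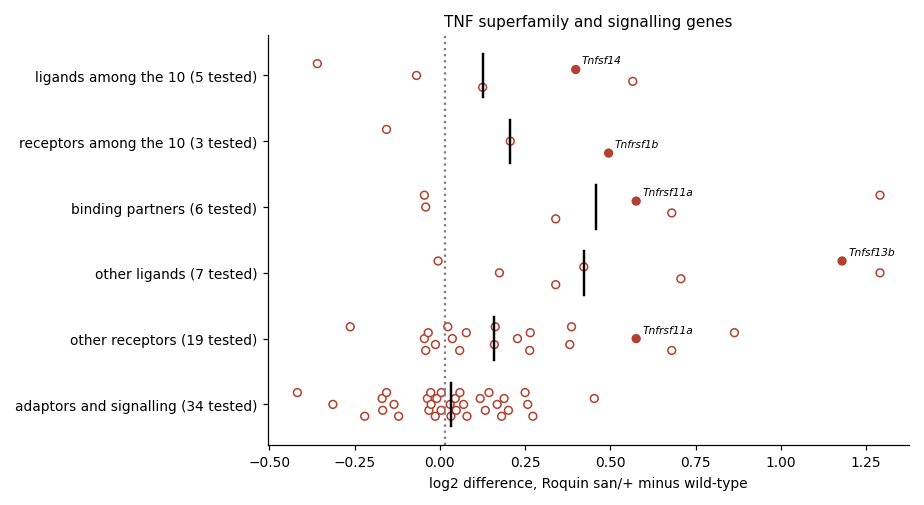
Log2 difference (Roquin san/+ minus wild-type) of each tested gene of the TNF superfamily and its signalling, by list. Black bars are list medians, the dotted line is the median of all tested probes (0.02), and filled points have an unadjusted p below 0.05. The binding partners are also counted among the other ligands or receptors, and the 3 ligands with the largest differences (Tnfsf15, Tnfsf13b and Tnfsf12) passed the filter only through Roquin san/+.

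Beyond the members, the array named 10 further ligand genes of the superfamily, 25 receptor genes and 34 genes of receptor adaptors and NF-kB signalling. None of the tested genes passed after adjustment. Of 7 ligands tested, Tnfsf12, Tnfsf13b and Tnfsf15 passed the filter only through Roquin san/+ and were higher there, so the ligands are counted by a filter blind to genotype. That filter left 4 ligands, of which 3 had the higher mean in Roquin san/+ (median 0.26) and 0 had an unadjusted p below 0.05. By the main filter the only ligand with an unadjusted p below 0.05 was Tnfsf13b. Tnfsf13b encodes BAFF, a survival factor for B-cells made largely by myeloid cells. It differed by 1.18 (SE 0.51, unadjusted limma p 0.0346) and was highest in Roquin san/+ on replicate F (-3.41), the array with the highest myeloid markers. It was well above background on 3 of 6 well-placed wild-type arrays, so the difference was measured partly against signals near background. It was 1.09 without replicate C and 0.95 without replicate F (unadjusted limma p 0.0612 and 0.0786). Within slide 1 it was 2.54 and within slide 2 -0.20. It was 1.38 without the displaced arrays and 0.98 with normexp (unadjusted limma p 0.0101 and 0.00978). The ends of the list of 7 were Tnfsf15 (1.29, described above) and Fasl, the death ligand of cytotoxic cells (-0.01).

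Of 19 receptors tested, 14 had the higher mean in Roquin san/+ (median 0.16), and 1, Tnfrsf11a, had an unadjusted p below 0.05. The ends of the list were Tnfrsf13c, the BAFF receptor of B-cells (0.86, and 0.17 without replicate F, its highest array), and Tnfrsf23, a decoy receptor (-0.26, and 0.23 without replicate C, its lowest array). Tnfrsf23 passed the filter only through wild-type, the group in which it was higher. With the filter blind to genotype, 14 of 18 receptors had the higher mean, and within slide 2 it was 8 of 19. Of the 34 adaptor and signalling genes, all were tested, 20 had the higher mean (median 0.03), and 0 had an unadjusted p below 0.05. Their differences ran from -0.42 for Siva1, an adaptor that binds CD27, to 0.45 for Nfkb2, the NF-kB subunit of the alternative pathway that CD40, RANK and the lymphotoxin beta receptor use. The difference of Siva1 was -0.16 without wild-type replicate C, and that of Nfkb2 0.31 without Roquin san/+ replicate F. These directions depend on the scaling: over the 5 scalings, the higher mean was in Roquin san/+ for 10 to 18 of the receptors and for 10 to 26 of the signalling genes.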

How the data were processed

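RNA of CD4+ T-cells was labelled with Cy3 and read on Agilent 1-colour arrays. The authors deposited spot intensities from Agilent Feature Extraction 10.5.1.1, whose processed signal has the background subtracted, with probe positions in mm9. A second deposited table, on the log2 scale, served as an alternative, and its making is not given in the sources used here.

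Each array was compared with the median of all arrays over moves of up to 6 rows or columns, and 2 arrays were moved by 2 rows (r with the median 0.0143 and 0.0149 before, 0.909 and 0.889 after; 328 spots of each have no value). Their detection calls cannot be relied on and took no part in the main scaling and filter. These calls did enter the alternatives that scaled over probes detected on all arrays or filtered over all arrays. Controls and outlier flags were removed, spots of a probe were averaged on the log2 scale, and the 75th percentile over 24281 probes well above background on all 12 well-placed arrays was subtracted. Probes well above background on all 6 well-placed arrays of a genotype passed (29043). Of these, 28802 without a missing value entered the limma fit (version 3.58.1, R 4.3.3, lmFit, eBayes, Benjamini-Hochberg over all tested probes, threshold 0.05). Among the 28802 tested probes, 793 had passed through Roquin san/+ alone and 3932 through wild-type alone. Single values were also tested by a two-sided exact permutation over 3432 arrangements, whose smallest p is 0.000583. The fit was tested on simulated data. The other steps used Python 3.11.15 with pandas 2.3.3 and numpy 2.4.6. The number of arrays limits the precision, and the p-values set a difference against the spread between these arrays.

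Alternatives covered background correction (normexp, offset 50), scaling, filter, slide, replicate letter, the moved arrays, the variance model, array weights, the probe taken for a gene and each array left out. Replicate letters were not treated as pairs in the main fit. The r of same-lettered deviations ran from -0.33 to 0.43, which cannot show whether the letters mark pairs. The members and gene lists were chosen with earlier results of these data known. Genes named are the members, their binding partners, markers, the 3 genes most like each member, and from other lists those with an unadjusted p below 0.05 or the largest difference in each direction.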

Additional observations from a re-analysis of the deposited data

Results flagged for a closer look

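A single array lay far from the other 6 of its group in 5 of the 20 groups of a gene and a genotype, by Dixon's test at 95%, where chance gives about 1 in 20. In Roquin san/+, replicate C was lowest for Ltb (2.21, others 4.82 to 5.80) and for Lta (-2.97, others -0.50 to 0.60). In wild-type, replicate C was lowest for Tnfrsf25 (1.70, others 2.58 to 3.06). The displaced wild-type replicate E was highest for Cd40lg (-4.00, others -7.15 to -6.24) and for Cd70 (-4.00, others -9.07 to -7.24), where it stood at its lowest signal.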

How the results depend on the processing

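No fit called a member, another gene of the superfamily or any other probe at an adjusted p below 0.05, including each of the 14 fits without an array and the fit with a replicate block (0 calls of each kind, with 912 probes at an unadjusted p below 0.05). By the probe that represents each gene, or the mean of its probes, Tnfsf8, Tnfsf14 and Tnfrsf1b kept their direction in every alternative. The differences ran over 0.32 to 0.80, 0.18 to 0.46 and 0.22 to 0.95. The second probes of Tnfsf8 and Tnfrsf1b turned within slide 2 (-0.19 for both). The directions of the other 5 tested members turned. For Tnfsf11 the difference was -0.16 with quantile normalization, -0.16 with the deposited probe names, -0.12 without the displaced arrays, -0.0924 with the authors' log2 values and -0.0685 with array weights. For Lta it was 0.00973 with normexp, 0.0247 with slide as a block and 0.0763 with array weights. Ltb was 0.0297 with array weights. On slide 2 alone Cd27 was -0.0837, Tnfrsf25 0.34, Lta 0.81 and Ltb 0.41. Among alternatives chosen after seeing the data, Tnfrsf25, Lta and Ltb were 0.22, 0.36 and 0.21 without Roquin san/+ replicates C and F, 0.30, 0.45 and 0.34 without the displaced arrays as well, and Tnfrsf25 and Lta were 0.0385 and 0.13 with the T-cell marker covariate. With an array left out, Tnfsf11 ran from -0.10 to 0.43, Cd27 from -0.00233 to 0.36, Tnfrsf25 from -0.31 to 0.0884, Lta from -0.26 to 0.33 and Ltb from -0.51 to 0.0931. The causes of these turns were not tested beyond the arrays left out. The median of all tested probes was 0.02, and it was 0.16 with normexp and -0.10 with the percentile over all probes. Probes at an unadjusted p below 0.05 numbered from 496 with slide as a block to 2919 with array weights, apart from 68 with the deposited probe names. Signals near background on the displaced arrays limit the reading of Cd40lg and Cd70.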
